A study of Mus musculus with 6 samples.

Results

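Interferon-stimulated genes are the genes that cells switch on when interferon or viral nucleic acid is sensed, and 41 of them were followed here in RNA of isolated mouse lung endothelial cells. The members were set by symbol, and all 41 were found among the 18956 genes of the deposited table. All 41 also passed the filter on low values, which kept genes with a normalized count of at least 10 in at least 3 libraries (13750 genes). Endothelial cells line blood and lymph vessels. Of the 6 libraries, 3 carried the label WT with a negative Cre status (WT 1 to 3) and 3 the label CSE-KO with a positive one (CSE-KO 1 to 3), where CSE is cystathionine gamma-lyase, the product of Cth. The sources used here do not give the Cre driver, the deleted part of the gene, the age and strain of the mice, any time in culture, or whether replicates were separate animals. The p-values below thus rest on library-to-library spread alone, which may be technical. Where 3 values are listed for a group, they are in the order of replicates 1 to 3.

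Type I interferons bind the receptor pair encoded by Ifnar1 and Ifnar2, whose kinases JAK1 and TYK2 phosphorylate STAT proteins. A complex that holds STAT2 and IRF9 then binds the interferon-stimulated response element (ISRE) in promoters, and interferon gamma acts through the gamma-activated site (GAS). The induced proteins detect viral RNA, degrade it, block its translation or trap particles at membranes, and several feed back on the pathway. Endothelial cells carry these receptors and keep a low basal output of many of these genes.

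Normalized counts summed to 6028772 to 6052275 per WT library and 5698922 to 5765008 per CSE-KO library. Cth was at 29, 27 and 26 across WT, against 49, 43 and 63 across CSE-KO, which goes against the label. A value over the whole gene does not check a deletion of part of it, so the groups are called by their labels throughout, and every direction is that of the libraries labelled CSE-KO. Of 12 endothelial markers 10 fell and 0 rose, where over all tested genes 39.0% fell and 38.3% rose. The same shares stand beside the counts of the other marker lists below. The summed level of the 12 endothelial markers was 17309 to 17640 in WT and 11410 to 12207 in CSE-KO, with Cdh5 and Pecam1 abundant in all 6 libraries. Of 12 macrophage markers 9 rose, 1 was tested and not called, 1 was below the filter and 1 was not in the table. Mpeg1, Adgre1, Csf1r, Itgam, Tyrobp, Ctss and Marco were under 10 in every WT library. They passed the filter through the CSE-KO libraries and could be called only as higher. The summed level of all 11 macrophage markers found in the table was 233 to 289 in WT and 1132 to 1416 in CSE-KO. Adgre1, Itgam and Marco were at 0 in all WT libraries. In bulk RNA fewer cells of a type and less RNA per cell cannot be told apart. Markers of other cell types moved as well. Of the epithelial and mesothelial list 3 of 4 tested genes rose and 0 fell, with a summed level of 31 to 32 in WT and 123 to 166 in CSE-KO. The 3 were the mesothelial genes Msln, Upk3b and Wt1, under 10 in every WT library, which passed the filter through the CSE-KO libraries. The epithelial gene Ager was at 22, 21 and 21 against 16, 18 and 12 and was not called (adjusted p = 0.080). Epcam, Cdh1 and Foxj1 were below the filter. The mesothelial gene Msln, for example, was at 1, 4 and 3 against 52, 51 and 60. Of the fibroblast and mural list 1 of 6 rose and 3 fell (sum 940 to 998 against 880 to 1115). Of the plasmacytoid dendritic cell, T and NK, B cell and neutrophil lists only 2 genes each were in the table, and Cd3e and Siglech were not among them. Of those tested, Cox6a2 (0, 0 and 1 against 37, 47 and 55), Lck (141, 137 and 139 against 226, 238 and 231), Pax5 (9, 0 and 5 against 29, 36 and 41) and S100a8 (1, 2 and 3 against 19, 23 and 13) rose, and Tcf4, which endothelial cells also express, fell. Cox6a2, Pax5 and S100a8 were also under 10 in every WT library and passed the filter through the CSE-KO libraries. The part of any of these cells in the results below was not tested.

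Interferon-stimulated genes were higher as a group in the libraries labelled CSE-KO, by modest folds. Of the 41 members, 30 rose, 1 fell and 10 were not called at an adjusted p under 0.05 (limma with Benjamini-Hochberg adjustment over all 13750 genes). Over all tested genes 77.4% were called, 38.3% as higher and 39.0% as lower. The median log2 fold change was 0.41 over the members and 0.00 over all tested genes. In 33 members every CSE-KO library lay above every WT library, and in 0 the reverse, against 40.0% and 40.4% of all tested genes. Tested against a fold of 1.2, 20 members were called as higher, and 23.1% of all tested genes were. Only 7 members rose over 2-fold, namely Mx2, Mx1, Oas1g, Oas3, Oasl1, Ifit3b and Oas2.

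**Figure D1:**
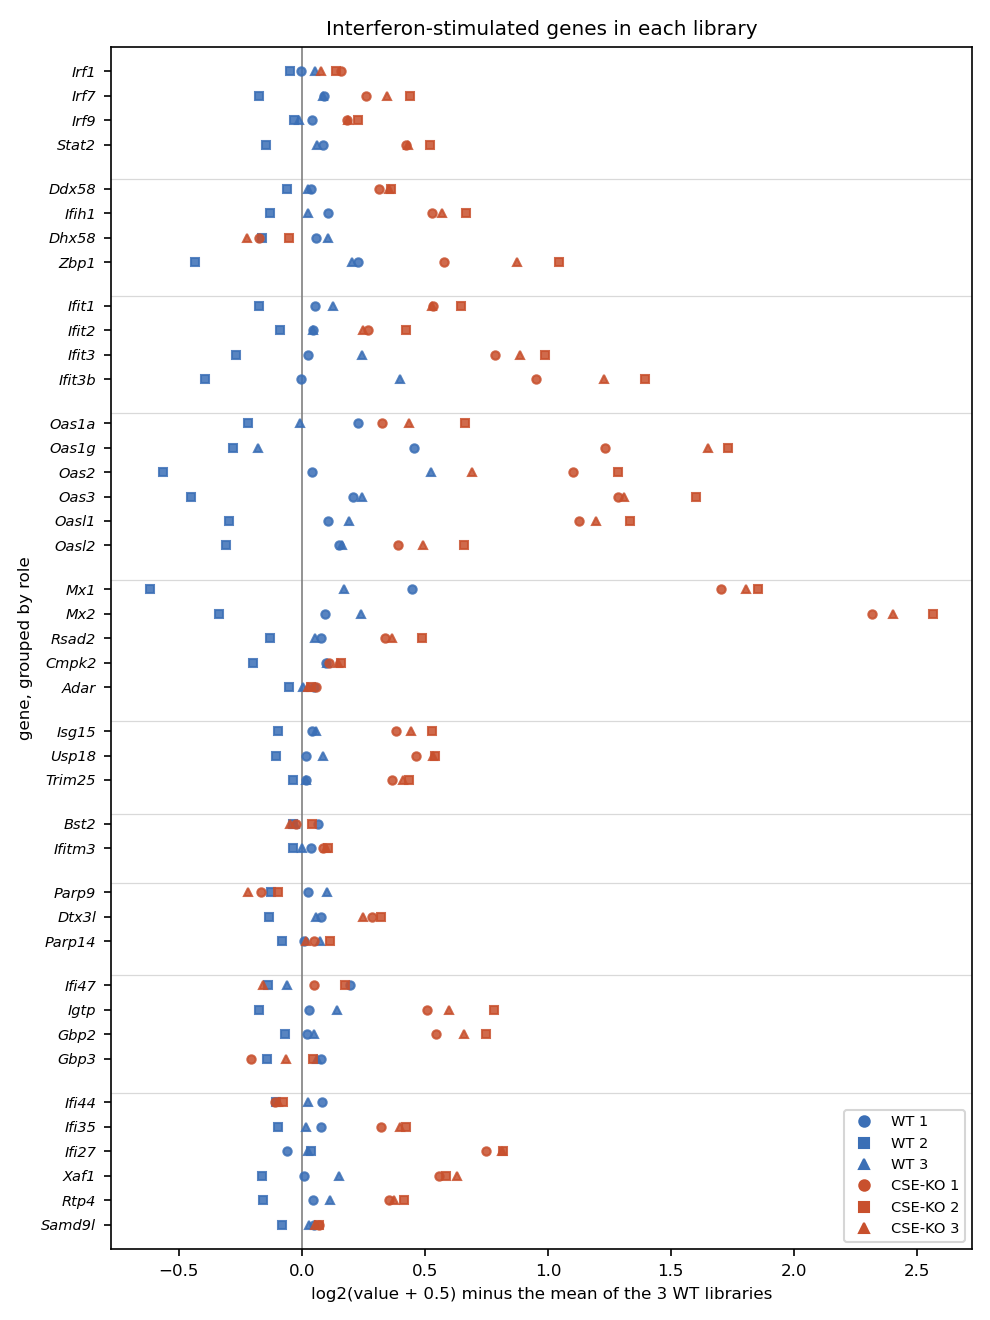
Each row is 1 of the 41 members, grouped by role, and each point is 1 library, placed by its log2(value + 0.5) minus the mean of the 3 WT libraries (blue WT, red CSE-KO, symbols for replicates 1 to 3). In 33 rows all red points lie to the right of all blue points, and the blue square of WT 2 is the leftmost WT point in 40 rows.

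Promoter sequences are shown here because an ISRE is what these genes are known for, and the members shown differ in both motif and response. RefSeq promoters on GRCm38.p6, from 250 bases before to 50 after each start, were at hand for 31 of the 41 members. The ISRE was searched as GAAANNGAAA on both strands, where N is any base. It was found in 16 of the 31 members (51.6%), in 3.81% of the 10204 tested genes that have a promoter in the table, and in 3.44% of all 32851 promoters. The GAS, searched as TTCNNNGAA, which reads the same on both strands, was found in 8 of the 31 members (25.8%) and in 8.15% of those tested genes. A match is a description of letters only. The sequences below run 5′ to 3′ along the gene, and capitals mark the ISRE matches, which can overlap.

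Isg15, chr4:156200769-156201068, minus strand, 3 matches that overlap: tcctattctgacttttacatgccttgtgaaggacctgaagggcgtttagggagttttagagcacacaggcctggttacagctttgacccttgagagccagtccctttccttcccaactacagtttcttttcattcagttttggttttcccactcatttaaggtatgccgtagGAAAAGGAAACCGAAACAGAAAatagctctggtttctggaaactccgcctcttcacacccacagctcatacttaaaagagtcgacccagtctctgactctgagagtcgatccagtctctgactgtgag

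Ifit1, chr19:34640639-34640938, plus strand, 2 matches: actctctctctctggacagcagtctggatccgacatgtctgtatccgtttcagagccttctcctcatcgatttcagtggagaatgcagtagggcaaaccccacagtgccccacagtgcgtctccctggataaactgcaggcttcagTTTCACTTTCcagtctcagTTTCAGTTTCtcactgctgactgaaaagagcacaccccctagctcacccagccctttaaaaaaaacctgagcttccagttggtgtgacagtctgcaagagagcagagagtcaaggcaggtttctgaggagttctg

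Ifit3, chr19:34583279-34583578, plus strand, 2 matches: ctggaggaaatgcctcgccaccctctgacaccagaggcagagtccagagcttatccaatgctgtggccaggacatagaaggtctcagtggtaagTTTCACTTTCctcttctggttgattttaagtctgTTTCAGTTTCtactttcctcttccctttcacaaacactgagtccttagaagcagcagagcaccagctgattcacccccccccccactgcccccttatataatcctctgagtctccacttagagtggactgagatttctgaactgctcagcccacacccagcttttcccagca

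Oas1g, chr5:120887564-120887863, minus strand, 2 matches that overlap: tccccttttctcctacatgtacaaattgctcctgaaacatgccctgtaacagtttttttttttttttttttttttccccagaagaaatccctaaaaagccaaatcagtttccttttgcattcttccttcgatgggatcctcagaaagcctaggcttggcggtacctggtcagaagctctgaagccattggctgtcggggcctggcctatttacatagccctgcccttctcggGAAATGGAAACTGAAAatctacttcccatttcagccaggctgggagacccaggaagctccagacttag

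Oas3, chr5:120777610-120777909, minus strand, 1 match: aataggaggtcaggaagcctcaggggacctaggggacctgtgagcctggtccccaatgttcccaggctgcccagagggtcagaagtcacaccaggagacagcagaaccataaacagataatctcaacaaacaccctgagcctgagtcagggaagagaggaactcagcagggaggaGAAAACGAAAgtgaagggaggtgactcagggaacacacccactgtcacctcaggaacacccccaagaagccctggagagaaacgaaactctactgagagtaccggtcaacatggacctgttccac

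Bst2, chr8:71537423-71537722, minus strand, 2 matches that overlap, not called: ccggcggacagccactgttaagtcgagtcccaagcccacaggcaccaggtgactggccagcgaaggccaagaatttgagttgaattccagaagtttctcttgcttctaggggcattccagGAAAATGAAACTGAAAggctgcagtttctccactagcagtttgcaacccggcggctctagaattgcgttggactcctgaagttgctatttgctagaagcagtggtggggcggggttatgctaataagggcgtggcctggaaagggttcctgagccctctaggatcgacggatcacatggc

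Oasl1, chr5:114922990-114923289, plus strand, 0 matches: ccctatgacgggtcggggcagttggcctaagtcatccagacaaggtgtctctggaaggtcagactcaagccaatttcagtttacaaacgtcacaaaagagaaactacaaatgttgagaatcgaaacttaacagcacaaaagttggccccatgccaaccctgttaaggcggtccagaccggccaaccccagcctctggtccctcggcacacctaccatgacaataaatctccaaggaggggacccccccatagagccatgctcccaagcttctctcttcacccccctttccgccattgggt

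The match nearest the start began 66 bases upstream in Isg15, 85 in Ifit1, 122 in Ifit3, 12 in Oas1g, 75 in Oas3 and 124 in Bst2. Of the 16 members with an ISRE 14 rose and 0 fell, with a median log2 fold change of 0.52, and Bst2 and Gbp3 were the members with a match that were not called. Of the 15 members with a promoter but no match 9 rose and 0 fell, with a median of 0.29. Among them Oasl1 rose over 2-fold. Over all tested genes with a promoter, members included, 48.8% of the 389 with a match and 39.0% of the 9815 without one rose, and 29.0% and 40.4% fell. The members lie on 13 chromosomes, with the 4 Ifit genes on chromosome 19 and the 6 Oas and Oasl genes on chromosome 5.

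Of the 4 transcription factors of the list, 3 rose. Stat2, the signal transducer of type I interferon, was at 984, 837 and 968 across WT, against 1245, 1332 and 1252 across CSE-KO. All CSE-KO values lay above all WT values, and WT 2 was the lowest and CSE-KO 2 the highest library. Stat2 rose 1.38-fold (log2 fold change 0.46, SE 0.065, adjusted p = 0.00047). Irf9, the DNA-binding part of the same complex, went from 772 ± 20.3 to 888 ± 15.0 (SD, n = 3 in each group, as throughout), a log2 fold change of 0.20 (adjusted p = 9.7e-05). Irf7, which drives interferon alpha genes, was at 724, 603 and 721 across WT, against 815, 922 and 865 across CSE-KO. The groups did not overlap, with a rise of 0.35 on the log2 scale (SE 0.084, adjusted p = 0.0083). Irf1, the factor most tied to interferon gamma, did not overlap either, at 248, 241 and 258 against 278, 274 and 263, but was not called (log2 fold change 0.13, adjusted p = 0.050). Its adjusted p was under the threshold in 7 of the 19 other settings, such as 0.044 with recomputed size factors.

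Of the 4 sensors of nucleic acid, 3 rose. Ddx58, which encodes RIG-I, a helicase that binds viral RNA ends, was at 1641, 1535 and 1627 across WT, against 1991, 2058 and 2044 across CSE-KO. The spread within each group was small beside the gap between them, which came to 0.34 on the log2 scale (SE 0.028, adjusted p = 6.8e-07). Ifih1, which encodes MDA5, a sensor of long viral RNA, rose by 0.59 on the log2 scale, from 873 ± 72.3 to 1311 ± 64.6 (adjusted p = 0.00012). Zbp1, a sensor of Z-form nucleic acid that can start necroptosis, was at 371, 234 and 365 against 472, 653 and 581. WT 2 stood far below the other WT libraries and CSE-KO 2 above the other CSE-KO libraries. Its log2 fold change of 0.83 (SE 0.25, adjusted p = 0.032) missed the threshold once CSE-KO 2 (adjusted p = 0.094) or CSE-KO 3 (0.091) was left out. Dhx58, which encodes LGP2, the helicase that tunes the other sensors, was at 575, 494 and 595 against 490, 533 and 474. The groups overlapped and it was not called (log2 fold change −0.15, SE 0.075, adjusted p = 0.099). Without WT 2 it fell by 0.23 on the log2 scale (adjusted p = 0.0037). A lncRNA on the opposite strand, Dhx58os, overlaps 2637 bases of the gene and averaged 65.7 in WT and 10.3 in CSE-KO.

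All 4 Ifit genes, whose proteins bind foreign RNA and block its translation, rose. Ifit1 was at 560, 478 and 589 across WT, against 782, 847 and 779 across CSE-KO, a 1.48-fold rise (log2 fold change 0.57, SE 0.080, adjusted p = 0.00042). Ifit2 rose by 0.31 on the log2 scale, from 344 ± 18.5 to 428 ± 28.7. Ifit3 was at 207, 169 and 241 against 351, 404 and 377, and its near copy Ifit3b at 100, 76 and 132 against 194, 264 and 235. In both, every CSE-KO library was above every WT library, with WT 2 lowest and CSE-KO 2 highest. Their log2 fold changes were 0.89 (SE 0.13, adjusted p = 0.00049) and 1.19 (SE 0.22, adjusted p = 0.0027). The pair share sequence: 41.1% of the 75-base windows of Ifit3 transcripts, the read length used, occur in Ifit3b, and 35.7% of those of Ifit3b in Ifit3. How such reads were assigned is not given in the sources used here, so the split between them is uncertain.

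The 2′-5′-oligoadenylate synthetase family, which makes the messenger that activates RNase L, held the largest rises after the Mx genes, and all 6 members rose. Oas3, the synthetase most sensitive to long RNA, was at 153, 97 and 157 across WT, against 324, 404 and 329 across CSE-KO. The lowest CSE-KO value was above the highest WT value, and Oas3 rose 2.64-fold (log2 fold change 1.40, SE 0.22, adjusted p = 0.0021). Oasl1, a relative without synthetase activity that restrains translation of Irf7, was at 349, 264 and 371 against 710, 819 and 745 (log2 fold change 1.22, SE 0.15, adjusted p = 0.00076). Oasl2 was at 575, 418 and 580 against 680, 818 and 730, a smaller rise of 0.51 on the log2 scale (adjusted p = 0.037). That call was lost without CSE-KO 2 (adjusted p = 0.11) or CSE-KO 3 (0.093). The ratio of Oasl1 to Oasl2 was 0.607 to 0.640 in WT and 1.00 to 1.04 in CSE-KO. This was 1 of 6 ratios between related members compared by an exact two-sided permutation test. With 3 libraries against 3 the test cannot go below p = 0.1, and each ratio had an exact p of 0.1 and an adjusted p of 0.1. The 6 pairs were not among the planned tests. Each set a member with a larger log2 fold change over a relative with a smaller one, so the ratios only describe the chosen pairs. Oas1a rose from 195 ± 30.1 to 270 ± 32.9 and its relative Oas1g from 16.3 ± 4.93 to 47.7 ± 8.50. Of the 75-base windows of Oas1a, 47.6% occur in Oas1g, and 36.9% of those of Oas1g occur in Oas1a. The split of reads between Oas1a and the much lower Oas1g is thus uncertain. Oas2 was near the filter, at 17, 11 and 24 against 36, 41 and 27 (log2 fold change 1.03, SE 0.29, adjusted p = 0.0066).

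The Mx genes, dynamin-like GTPases that block incoming viruses, rose most. Mx2 was at 150, 111 and 166 across WT, against 701, 833 and 745 across CSE-KO. Every CSE-KO library was far above every WT library. Mx2 rose 5.38-fold (log2 fold change 2.43, SE 0.17, adjusted p = 4.8e-05), which made it the member with the largest change. Mx1 was low in every library, at 11, 5 and 9 against 27, 30 and 29 (log2 fold change 1.79, SE 0.30, adjusted p = 0.00022). Only 1 WT library of Mx1 reached the minimum of 10, so it passed the filter through the CSE-KO libraries. The table lists both as polymorphic pseudogenes, and many laboratory mouse strains are known to carry defective Mx alleles. Rsad2, which encodes viperin, an enzyme that makes a chain-terminating nucleotide, was at 897, 776 and 880 against 1074, 1193 and 1094 (log2 fold change 0.40, adjusted p = 0.00078). Its neighbour Cmpk2, a mitochondrial nucleotide kinase, was at 622, 506 and 623 against 627, 649 and 644. The groups just failed to overlap, and Cmpk2 was not called (log2 fold change 0.14, SE 0.080, adjusted p = 0.15). Adar, which edits adenosine in paired RNA, was at 1442 ± 51.7 and 1481 ± 15.9 and was not called (adjusted p = 0.22), and 13.1% of its 75-base windows occur in Chrnb2, which overlaps it on the opposite strand.

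The ISG15 system attaches a ubiquitin-like tag to proteins, and all 3 of its members here rose. Isg15, the tag itself, was at 323, 294 and 327 across WT, against 410, 454 and 428 across CSE-KO, with no overlap (log2 fold change 0.45, SE 0.056, adjusted p = 1.9e-05). Usp18, which removes the tag and dampens the interferon receptor, was at 537, 493 and 563 against 732, 772 and 768 (log2 fold change 0.51, adjusted p = 1.9e-06). Trim25, a ligase that activates RIG-I, was at 1342, 1291 and 1342 against 1710, 1794 and 1764, and its adjusted p of 1.1e-07 was among the smallest of the members. Other enzymes of the system, picked from the wider list after their values were seen, moved in different directions. Uba7, the enzyme that activates ISG15, was at 618, 541 and 642 against 201, 166 and 124, a fall of 1.90 on the log2 scale (adjusted p = 0.00041). Ube2l6, which carries the tag, was at 326 ± 36.7 and 305 ± 10.6 and was not called (adjusted p = 0.31). Herc6, the mouse ISG15 ligase, rose from 182 ± 23.9 to 235 ± 22.6 (adjusted p = 0.0076).

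The membrane restriction factors had the lowest median log2 fold change of the families, 0.04. Bst2, or tetherin, which holds budding virus at the surface, was at 577, 538 and 540 against 543, 567 and 533. The groups overlapped throughout, at a log2 fold change of −0.01 (SE 0.041, adjusted p = 0.83), with a sign that turned to 0.06 with equal totals. Ifitm3, which blocks viral fusion in endosomes, was at 493, 468 and 481 against 510, 517 and 515. The groups did not overlap, but the rise was only 1.07-fold (log2 fold change 0.10, SE 0.036, adjusted p = 0.028). Its call was lost in 8 of the 19 other settings, among them leaving out WT 2, WT 3, CSE-KO 2 or CSE-KO 3 (adjusted p between 0.061 and 0.10). Ifitm3, Bst2 and Isg15 are short and dense in reads, with up to 0.763, 0.639 and 0.601 normalized counts per exonic base, and no gene of the table exceeded 0.844. Picard, named in the submitters' processing notes, can remove reads that share a start position, and whether it did is not given in the sources used here. With such a loss assumed and corrected, the log2 fold change was 0.20 for Ifitm3, 0.65 for Isg15 and −0.02 for Bst2. The correction used normalized counts per exonic base in place of raw reads, whose depth is unknown, so its size is uncertain.

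PARP9 and DTX3L form a complex that modifies histones and boosts interferon signalling, and their genes lie head to head. Dtx3l, the ubiquitin ligase, was at 745, 643 and 736 across WT, against 861, 884 and 839 across CSE-KO, a rise of 0.29 on the log2 scale (SE 0.054, adjusted p = 0.00094). Parp9 was at 828, 746 and 874 against 726, 761 and 700 and was the only member that fell (log2 fold change −0.16, SE 0.058, adjusted p = 0.031). The groups of Parp9 overlapped, and its call was lost without WT 1, WT 3 or CSE-KO 3 (adjusted p between 0.089 and 0.10) and with equal totals (0.20). The ratio of Dtx3l to Parp9 was at most 0.900 in WT and at least 1.16 in CSE-KO, with no overlap (exact permutation p = 0.1). The genes overlap by 682 bases on opposite strands, and whether counting used the strand is not given in the sources used here. Parp14, a larger relative, was at 1788 ± 96.9 and 1862 ± 63.4 and was not called (adjusted p = 0.21).

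The GTPases known best as interferon gamma targets split within families. Gbp2, a guanylate-binding protein that attacks pathogen vacuoles, was at 659, 619 and 673 across WT, against 949, 1092 and 1026 across CSE-KO, with no overlap (log2 fold change 0.65, SE 0.052, adjusted p = 2.2e-06). Gbp3, a relative on the same chromosome, was at 867, 745 and 858 against 712, 848 and 785, with overlap and no call (log2 fold change −0.08, SE 0.085, adjusted p = 0.45). Their ratio, Gbp2 over Gbp3, was 0.760 to 0.831 in WT and 1.29 to 1.33 in CSE-KO (exact permutation p = 0.1). Igtp, an immunity-related GTPase (Irgm3), was at 317, 275 and 343 against 442, 533 and 470 (log2 fold change 0.63, SE 0.096, adjusted p = 0.00051). It overlaps Irgm2 over 7974 bases on the same strand, and 7.80% of its 75-base windows occur in Irgm2 transcripts, so the split of those reads is uncertain. Ifi47, of the same family, was at 183, 145 and 153 against 165, 180 and 143 and was not called (log2 fold change 0.02, SE 0.11, adjusted p = 0.86). It lies within an annotation of Olfr56 on the same strand.

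Of the other 6 members 4 rose. Ifi27, a small mitochondrial and nuclear membrane protein, was at 282, 302 and 299 against 495, 519 and 518, with an adjusted p of 3.5e-08, the smallest among the members (log2 fold change 0.79, SE 0.045). It was the only member in which WT 2 was not the lowest WT library. Xaf1, which antagonises the caspase inhibitor XIAP, rose 1.51-fold from 376 ± 40.5 to 564 ± 14.6 (adjusted p = 4.1e-05). Ifi35 rose by 0.38 on the log2 scale (adjusted p = 3.3e-05), as did Rtp4, a chaperone of receptors that also restricts viruses (adjusted p = 0.00027). Ifi44 was at 989, 869 and 950 against 866, 886 and 873, with overlap and no call (log2 fold change −0.10, adjusted p = 0.063). Without WT 2 it fell by 0.15 on the log2 scale (adjusted p = 0.0026). Samd9l, a brake on growth and translation, was at 1728, 1578 and 1704 against 1749, 1753 and 1731 and was not called (adjusted p = 0.089).

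Levels differed widely between members when set on exonic length. Per kilobase of exon, mean WT normalized counts ran from 2.20 for Mx1, 3.89 for Oas2 and 6.98 for Oas1g to 416 for Isg15, 611 for Bst2 and 709 for Ifitm3. In CSE-KO they ran from 7.57 for Mx1 to 758 for Ifitm3. Of the 7 members that rose over 2-fold, 6 were at 51.3 per kilobase or less in WT, and the exception was Oasl1 at 126. Mx2 moved from 39.4 to 210 per kilobase, the widest move along the order of the members. The WT value enters both the level and the change, so this order is a description. A loss of reads that share a start position, if it took place, would also bear on both for the dense members Ifitm3, Bst2 and Isg15.

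**Figure D2:**
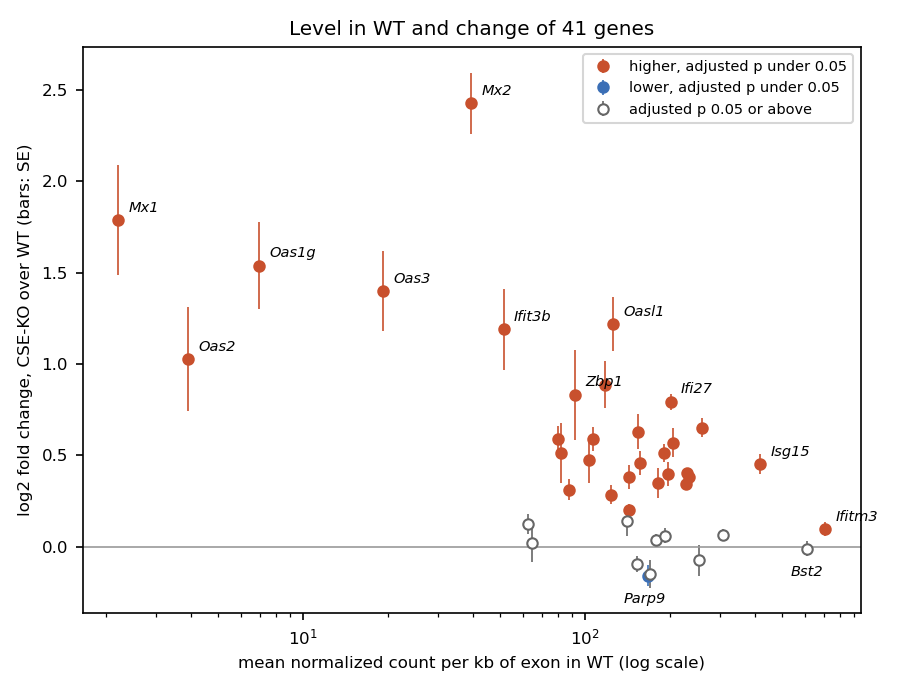
Each point is 1 of the 41 members, placed by its mean normalized count per kilobase of exon in WT (x, log scale) and its log2 fold change with SE (y), filled where the adjusted p was under 0.05. The low-level members Mx1, Oas2, Oas1g, Oas3 and Mx2 sit at log2 fold changes between 1.03 and 2.43, and Bst2 and Ifitm3, with the highest levels, sit near 0.

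The members also moved together between libraries of the same group. WT 2 was the lowest WT library in 40 of 41 members, against 31.8% of all tested genes. Among the CSE-KO libraries, number 2 had the top value for 38 of 41, against 25.6% of all tested genes. The exceptions were Ifi27 for WT 2, and Irf1, Adar and Xaf1 for CSE-KO 2. Both held in 37 members (90.2%, against 8.46%). The median log2 difference from the own group's mean was −0.14 in WT 2 and 0.08 in CSE-KO 2, while over all tested genes it was 0.00 in WT 2 and −0.01 in CSE-KO 2. Summed over the 41 members, normalized counts were 24792, 21971 and 24839 across WT and 29281, 31656 and 29980 across CSE-KO. The members varied more between WT libraries than most genes, with a median coefficient of variation of 8.28% against 4.04% over all tested genes, and in CSE-KO it was 4.93% against 5.21%. Macrophage markers had their highest CSE-KO sum in CSE-KO 2 (1416, against 1132 and 1259) and their highest WT sum in WT 2 (289, with 233 the lowest). Most of the sum in WT 2 came from Cd68 (128) and Mrc1 (112), and Mrc1 was not called between the groups. Adgre1, Itgam and Marco were at 0 in WT 2. The part of macrophages in these shared shifts of the members was not tested. Left out in turn, no library ended the rise of the group: between 27 and 31 members rose, and 29 did without WT 2.

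**Figure D3:**
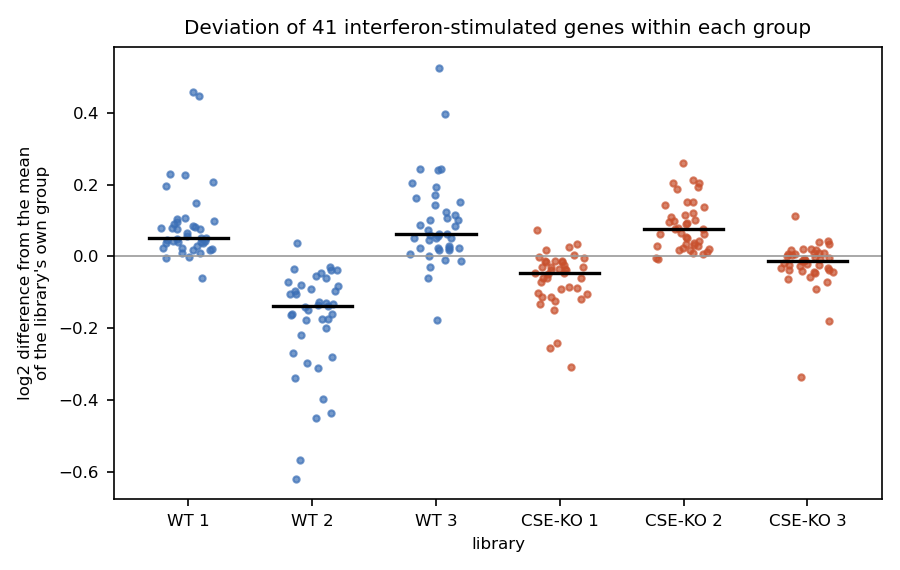
Each point is 1 of the 41 members in 1 library, placed by its log2(value + 0.5) minus the mean of that library's own group, and the bar is the median. In WT 2, 40 of 41 points lie below 0, and in CSE-KO 2, 39 of 41 lie above 0.

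Upstream of these genes, 2 of 21 interferon genes were in the table, both at 0 or 1 in every WT library. Ifnb1, which encodes interferon beta, was at 0, 0 and 1 across WT, against 6, 22 and 12 across CSE-KO, with its highest value in CSE-KO 2, as in most members. Ifnz was at 0, 1 and 0 against 1, 7 and 4, again highest in CSE-KO 2. Both were below the filter, so neither was tested.

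Of 14 tested genes of the receptor and JAK-STAT list 9 fell and 2 rose, where 39.0% of all tested genes fell and 38.3% rose, with a median log2 fold change of −0.26. Ifnar1 was at 1173, 1184 and 1182 across WT, against 838, 739 and 703 across CSE-KO, a fall of 0.64 on the log2 scale (SE 0.059, adjusted p = 2.0e-05). Ifnar2 fell from 505 ± 30.2 to 419 ± 5.69, and the interferon gamma receptor chain Ifngr2 from 566 ± 21.5 to 477 ± 5.03. Ifngr1, the other chain, was at 493 ± 11.9 and 463 ± 19.1 and was not called (adjusted p = 0.067). Il10rb, the chain shared with lambda interferons, fell from 295 ± 5.29 to 245 ± 11.4. Of the kinases, Tyk2 fell by 0.89, Jak2 by 0.47 and Jak1 by 0.46 on the log2 scale (adjusted p at most 9.3e-07). Irf5, an interferon regulatory factor of myeloid cells, rose from 19.3 ± 2.52 to 87.0 ± 10.5, and the part of macrophages was not tested. Irf8, another such factor, named here after its values were seen, was at 558, 567 and 584 against 210, 170 and 146, the largest fall of the list (log2 fold change −1.71, adjusted p = 1.3e-05).

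Of 16 tested genes that lead to interferon production 6 rose and 8 fell (median log2 fold change −0.16), shares near those over all tested genes (38.3% and 39.0%). Tmem173, which encodes STING, the adaptor of DNA sensing, was at 940, 952 and 933 against 569, 537 and 520 (log2 fold change −0.80, adjusted p = 8.8e-09). Ikbke, a kinase of IRF3 and IRF7, fell from 466 ± 28.9 to 302 ± 12.6. Traf6 rose from 679 ± 11.4 to 986 ± 25.9, and Trim56, a ligase linked to STING and RNA sensing, from 1270 ± 56.5 to 1922 ± 55.1. Among 15 tested genes listed as brakes on the pathway 9 rose and 4 fell (median 0.32), against the same 38.3% and 39.0%. The list also holds Isg20, named here after its values were seen, which is better known as an interferon-stimulated gene. It was among the 9 that rose (log2 fold change 0.80). Tnfaip3, which encodes the ubiquitin editor A20, rose from 435 ± 14.8 to 1475 ± 47.6 (log2 fold change 1.76, adjusted p = 5.1e-11). Pias4 and the phosphatase gene Ptpn2 rose by 0.71 and 0.70 on the log2 scale, and Nlrc3, a negative regulator of STING, fell by 2.06.

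**Figure D4:**
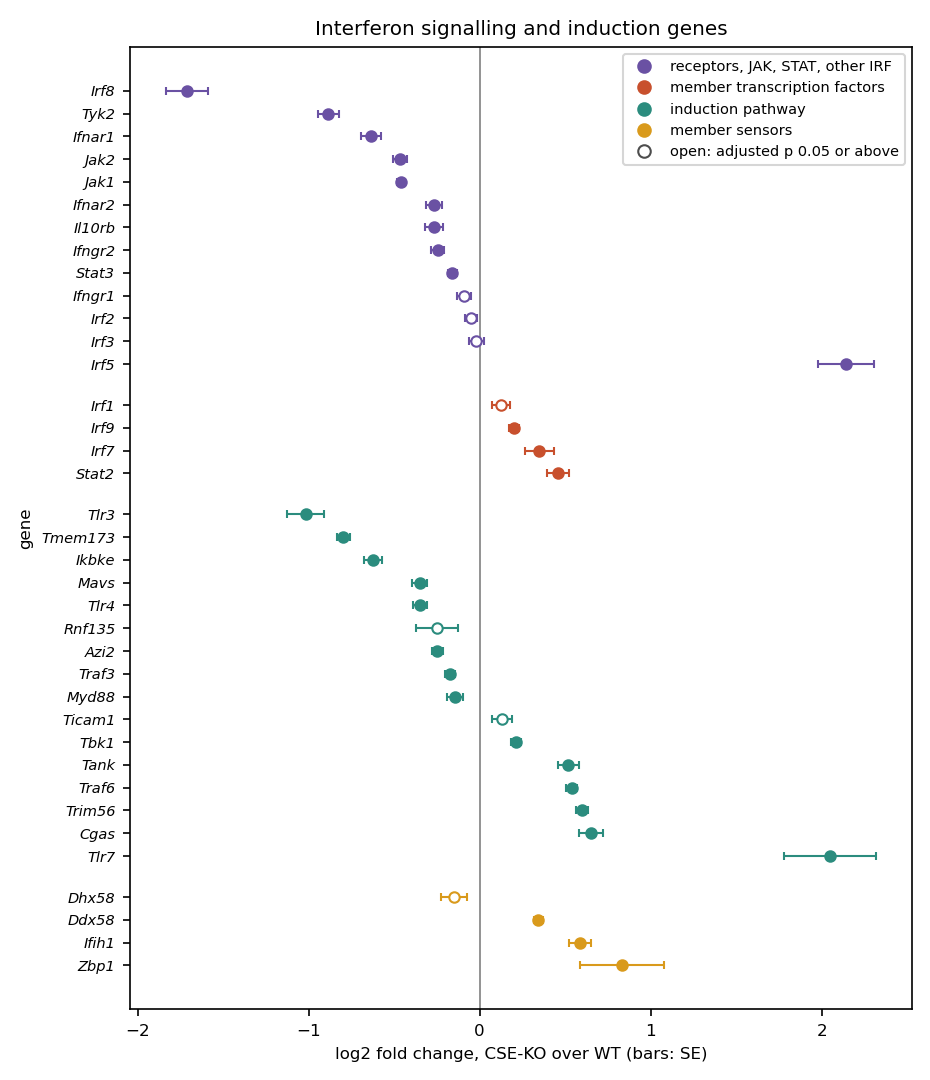
Points are log2 fold changes with SE for genes of the receptor and JAK-STAT list, the member transcription factors, the induction pathway and the member sensors, filled where the adjusted p was under 0.05. Stat2, Irf9 and Irf7 lie to the right of 0, and Tyk2, Ifnar1, Jak2, Jak1 and Ifnar2 lie to the left.

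A wider set of interferon-stimulated genes lay outside the 41. Of 60 tested, 29 rose, 13 fell and 18 were not called, where 38.3% of all tested genes rose and 39.0% fell, with a median log2 fold change of 0.18. Ifi205, of the PYHIN family of DNA-binding proteins, was at 21, 19 and 20 against 160, 188 and 179 (log2 fold change 3.10, adjusted p = 3.7e-09). Cxcl10, a chemokine that attracts T cells, was at 55, 50 and 66 against 259, 279 and 287 (log2 fold change 2.27, adjusted p = 1.1e-08). Ifi30, known as a lysosomal thiol reductase of antigen-presenting cells, rose from 50.3 ± 7.57 to 234 ± 8.50, and the part of macrophages was not tested. The table lists Ifi30 as a lncRNA. Lgals3bp, a secreted glycoprotein, fell from 1336 ± 23.5 to 761 ± 39.0. Of these 60, WT 2 was the lowest WT library in 53 (88.3%) and number 2 of CSE-KO the top value for 42 (70.0%). Among the receptor and JAK-STAT genes WT 2 was lowest in 4 of 14 and CSE-KO 2 highest in 4 of 14.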

How the data were processed

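Bulk RNA of 6 libraries (3 WT, 3 CSE-KO) was sequenced as 75-base single-end reads from a stranded mRNA kit, per the labels' protocols. The submitters' processing notes name Trimmomatic 0.39, STAR 2.7.3a, Picard 2.21.7, featureCounts 1.6.5, DESeq2 1.26.0 and mm10. The deposited values are whole numbers per gene, handled as a score: they were read as counts divided by a size factor and rounded, which is inferred from the values, and the raw depth is unknown. Totals of these values ran from 5698922 to 6052275 per library.

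From these, log2(value + 0.5) was fitted in limma 3.58.1 (R 4.3.3) with an intensity trend and robust variances, for genes at 10 or more in at least 3 libraries, with Benjamini-Hochberg adjustment over 13750 genes. Fold changes are on that scale and understate those of low genes. Exonic lengths and overlaps came from GENCODE annotation of the same build, in which 18940 of 18956 identifiers were found, and promoters from RefSeq.

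All members are named. Of each pathway list the 4 genes with the smallest adjusted p, and every interferon and interferon receptor gene, are named, and any other is marked as chosen later. A gene the rule also covers is not reported here. The members and lists were chosen with earlier results of these data known. Alternatives varied scaling, filter, pseudocount, test, libraries and the replicate block.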

Additional observations from a re-analysis of the deposited data

How the results depend on the processing

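The count of members that rose was 30, and it stayed within 1.5 times that in every setting tried, from 20 (tested against a fold of 1.2) to 35 (equal totals), with 27 to 31 when each library was left out in turn. The count that fell, 1, became 0 with equal totals, upper-quartile scaling, the replicate block, limma without trend and robust variances, or the test against a fold of 1.2. Leaving out each library gave 0 to 3, with 3 (Parp9, Dhx58 and Ifi44) without WT 2. Of the pathway genes 46 rose and 34 fell, which became 26 and 21 against a fold of 1.2, and 39 to 47 and 33 to 38 with each library left out. Bst2 (log2 fold change −0.010) turned to 0.063 with equal totals and 0.039 with upper-quartile scaling, and lay between −0.035 and 0.023 with each library left out. It was above 0 without WT 1 or CSE-KO 3. Ifi47 (0.022) lay between −0.054 and 0.12 with each library left out, and was below 0 without WT 2, WT 3 or CSE-KO 2. With the replicate number as a block, 27 members rose and 0 fell, 43 pathway genes rose and 34 fell, and the calls of Zbp1 (adjusted p = 0.10), Oasl2 (0.11), Ifitm3 (0.051) and Parp9 (0.075) were lost. Deviations from the own group's mean had correlations of −0.00079, 0.020 and 0.011 between same-numbered libraries over all tested genes. Over the members these correlations were −0.51, −0.70 and −0.42. The labels name no shared animal or day, so such values cannot decide whether the numbers pair libraries. A minimum value of 50 left Mx1, Oas2 and Oas1g untested. Equal totals shifted the median log2 fold change over the 13750 genes from 0.00 to 0.08. With a loss of reads at shared start positions assumed and corrected, 30 members rose and 1 fell. Log2 fold changes then lay further from 0 in members such as Ddx58 (0.34 to 0.40), Ifit1 (0.57 to 0.66) and Dhx58 (−0.15 to −0.16). Low values limit Mx1, Oas2 and Oas1g most.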
